A study of Homo sapiens with 12 samples.

Results

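The arrays described here carry cytoplasmic RNA of U2OS cells that received a control siRNA, and they were chosen by their sample titles, which name the control siRNA and replicates 1 to 3. They are 3 of the 12 arrays of the series, and the 9 arrays of cells with siRNA against DBP5, GLE1 or IPPK were not used here. U2OS is an established human osteosarcoma cell line. The cells were grown in Dulbecco's medium with 10% serum and transfected with 20 nM control siRNA through Lipofectamine2000, and a culture time of 48 h is stated for the RNA isolation. The cytoplasm was released with a buffer that holds the detergent NP40, its RNA was labelled with Cy3 by a whole-transcriptome kit, and each culture was read on an array of its own in 1 colour. All 3 cultures thus went through transfection, and untreated cells, nuclear RNA and total RNA were not analysed here.

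Osteosarcoma is a bone tumour of mesenchymal origin. In bone, RUNX2 and then SP7 direct precursor cells to the osteoblast fate, and osteoblasts secrete collagen and mineralise it with phosphatases and acidic glycoproteins. Osteosarcomas often lose brakes on the cell cycle such as RB, and U2OS is known for keeping its telomeres by recombination in place of telomerase.

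Each array holds 43118 spots for 34127 probes of human transcripts. The authors' files give each spot a processed signal, a linear intensity after background subtraction by the scanner software, and a flag that says whether the spot lies well above background. The flag was set for 26400 probes on replicate 1, 25835 on replicate 2 and 25515 on replicate 3, which is 77.4%, 75.7% and 74.8% of all probes. The median processed signal was 159, 161 and 131 on replicates 1, 2 and 3, and wherever 3 signals follow a gene name below they stand in that order. The spots were read without saturation (0 saturated spots per array) up to 626109, 671938 and 676751, while negative control spots had a median of 3.1, 3.32 and 2.84. The lowest probe signal with the flag was 13.7, 14.1 and 12.6, so the scale between the dimmest flagged probe and the top covers more than 4 decades. The slope of the log signal of the spike-in RNAs on their log amount was 0.981, 0.984 and 1, with an r2 of 0.99, 0.99 and 0.993. With so few arrays the precision of the values below is limited.

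A gene name is called on where at least 1 of its probes was well above background on all 3 arrays, off where no probe was so on any array, and mixed otherwise. Of 27459 gene names, 20038 were on (73%), 1667 were mixed (6.07%) and 5754 were off (21%). Protein-coding genes with a RefSeq name were on in 14826 of 18298 cases (81%), long non-coding RNAs in 660 of 1219 (54.1%), and names known from the array design alone in 4128 of 7355 (56.1%). Names on had a median signal of 638, 675 and 546 at their brightest probe, and names off one of 4.98, 4.58 and 3.66. The flag is a lenient limit: of the names on, 23.8%, 23.9% and 26.7% had a signal under 100. A signal of at least 100 on all 3 arrays, a limit chosen after the values were seen, was reached by 14626 names (53.3%), and its counts are given for most lists and families beside those of the flag. The lists and their members were chosen with earlier results of these data known, so their shares are descriptions and test nothing. The call of off depends on the limit too, with 1482 names off by the software's flag for a positive and significant signal and 1825 by the 99th percentile of the negative controls. Off is written here for "not well above background" and does not show that a transcript is missing. Brightness depends on the probe as well as on the RNA, so ranks describe probes, and no gene's amount is set against another's. An array averages over all cells of a culture, so fewer cells with an RNA and less RNA per cell cannot be told apart.

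**Figure D1:**
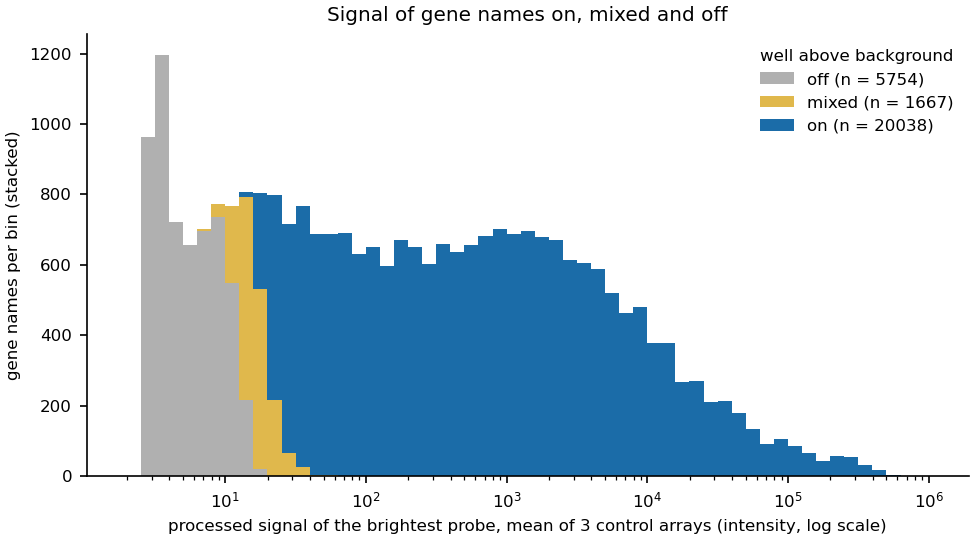
Stacked numbers of gene names (vertical axis) by the processed signal of their brightest probe, as the mean of the 3 control arrays on a log scale (horizontal axis), for names off (5754), mixed (1667) and on (20038). Names off and on meet between signals of about 10 and 30, and names on spread from there to the top of the scale.

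The brightest signals came from the translation machinery. All 86 cytosolic ribosomal protein genes were on, 52 of them were among the 100 brightest names and 80 among the 1000 brightest. Their median signal was 271541, 308161 and 260660, where the median of all names on was 638, 675 and 546. They held 13.8%, 13.8% and 14.7% of the signal summed over all names on (14.1% ± 0.512, SD, n = 3 arrays). The 100 brightest names together held 20.4%, 20.5% and 22.1% (21% ± 0.993, SD, n = 3), the 1000 brightest 67%, 67.2% and 68.4%, and 439 names were enough for 50% of the sum.

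Among the 20 brightest names, 13 were ribosomal protein genes, among them RPS2, RPS21, RPS20, RPLP0, RPS29, RPL19, RPL13, RPL23, RPS27, RPL23A, RPS13 and RPL6. RPS2, a protein of the small subunit, had the top signal on each array, at 626109, 671938 and 676751. RPLP0, a stalk protein of the large subunit, read 441262, 472408 and 438810. Structural RNA stood beside these genes. SNAR-A3, a small non-coding RNA, had 550050, 615903 and 611075, and RNA28SN5, the large ribosomal RNA, 469757, 515821 and 510930 at its brightest of 4 probes. ZNF865, a zinc finger gene, had 429709, 501152 and 478351. SLC66A1, a lysosomal exporter of basic amino acids, had 414208, 448579 and 419484, and C5orf63 had 384258, 460118 and 427990. Whether the probes of such bright names, LINC01001 and CYP2W1 among them, meet only the RNA they are named for was not tested. Also among the 20 were the probes A_33_P3396434 and A_33_P3381429, which the design gives no gene. Their signals were 506823, 506831 and 473888 for the former and 491695, 501196 and 450805 for the latter. Of the 100 brightest names, 18 had no RefSeq name. When the mean of a gene's probes took the place of the brightest probe, 10 of the 20 names were again among the 20 brightest.

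Genes for ribosomal proteins are known for a stretch of pyrimidines around their transcription start, the mark of messages whose translation follows the growth signals of the cell. The start regions of RPS21, RPS27 and RPS13 are shown as picked examples of the 20 brightest names with an entry in the promoter table. They do not stand for all ribosomal protein genes. The sequences run from 250 bases before to 50 bases after the start, come from RefSeq (GRCh38.p14), and lie at chr20:62386853-62387152 (+ strand), chr1:153990512-153990811 (+ strand) and chr11:17077618-17077917 (- strand). Capitals mark the motifs CTTTC and CTTTT where they begin within 10 bases of the start, searched on the sense strand. The motifs differ in their last letter, so they cannot both match at the same position.
RPS21: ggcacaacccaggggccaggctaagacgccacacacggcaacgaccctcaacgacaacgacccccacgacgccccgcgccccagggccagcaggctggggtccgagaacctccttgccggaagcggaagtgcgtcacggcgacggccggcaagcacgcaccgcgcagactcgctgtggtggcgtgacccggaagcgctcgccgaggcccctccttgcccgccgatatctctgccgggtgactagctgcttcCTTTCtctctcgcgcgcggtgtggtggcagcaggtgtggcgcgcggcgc
RPS27: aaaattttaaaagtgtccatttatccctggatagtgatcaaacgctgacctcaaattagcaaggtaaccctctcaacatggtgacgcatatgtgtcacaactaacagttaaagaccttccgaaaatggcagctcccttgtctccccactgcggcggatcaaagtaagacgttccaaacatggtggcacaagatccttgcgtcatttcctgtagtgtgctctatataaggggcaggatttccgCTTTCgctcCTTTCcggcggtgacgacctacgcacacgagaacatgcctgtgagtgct
RPS13: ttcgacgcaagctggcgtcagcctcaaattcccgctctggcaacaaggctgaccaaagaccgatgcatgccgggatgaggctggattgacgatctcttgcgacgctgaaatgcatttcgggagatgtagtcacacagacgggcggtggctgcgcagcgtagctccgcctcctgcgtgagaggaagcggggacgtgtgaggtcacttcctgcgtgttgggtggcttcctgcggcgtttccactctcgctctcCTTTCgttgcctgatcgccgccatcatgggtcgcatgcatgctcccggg
RPS27 has 2 such matches, RPS21 and RPS13 have 1 each. Either motif at the start was found in 34 of the 80 promoters held for the 100 brightest protein-coding genes (42.5%), in 12.5% of those of the 1000 brightest, in 5.85% of those of all protein-coding genes on, and in 6.45% of all 27303 promoters of the table. The 27303 promoters were not limited to protein-coding genes. A match is a description of letters and names no bound factor. For the ribosomal protein family as a whole the count is void, because 68 of 86 members (79.1%) had a promoter, fewer than the 80% asked for.

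Other parts of the machinery for making and turning over protein were mostly on, beside 73% of all names and 81% of protein-coding genes. All 77 mitochondrial ribosomal protein genes were on, with a median of 16159, 18023 and 13391. All 8 translation elongation factor genes were on, led by EEF1A1, which carries aminoacyl-tRNA to the ribosome, at 381941, 406457 and 323567. Initiation factors were on for 50 of 51 genes, with EIF1, which helps to select the start codon, at 330490, 369679 and 308262, and EIF4E1B, a germ-line relative of the cap-binding protein, off. Proteasome subunits were on for 49 of 50 genes, the exception being PSMA8, the subunit of the testis form, at 2.92, 3.16 and 2.69. The folding complex CCT had 8 of 10 names on (80%, near the share of protein-coding genes), and the names off were CCT6B and CCT8L2, both known from testis. Respiratory chain genes followed the same pattern: 36 of 36 for complex I, 15 of 17 for cytochrome c oxidase and 19 of 19 for ATP synthase. The cytochrome c oxidase genes off were COX8C and COX7A1, the latter the form of heart and skeletal muscle. Genes encoded in mitochondrial DNA had no probe under their names (0 of 15 measured).

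RNA-binding and cytoskeletal families were mostly on as well, beside 73% of all names and 81% of protein-coding genes. All 22 heterogeneous nuclear ribonucleoprotein genes and all 25 genes for Sm and LSm proteins, the ring proteins of small RNPs, were on. Tubulins were on for 14 of 15 genes, with TUBA1B at 343547, 375517 and 334040. Annexins, which bind membranes through calcium, were on for 12 of 13 genes, with ANXA2 at 201941, 213686 and 182228. Metallothioneins, which bind zinc and copper, were on for 9 of 11 genes (81.8%, near the share of protein-coding genes). MT2A of that family had 347610, 388396 and 341311, while MT1H and MT4 were off. Histone genes were on for 76 of 82 names, with a median of 22441, 24114 and 18544. H4C3, a replication-dependent H4 gene, had 265225, 312484 and 251259, and among the genes off were H1-5 and H2AC16, at 11, 16.4 and 12.7 and at 11.6, 12.7 and 9.68, and H1-6, the linker histone of testis, at 10.6, 8.94 and 9.87.

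Genes of the dividing cell were on without exception in the list used. Of all names, 73% were on and 53.3% were above 100, and of protein-coding genes 81% were on. All 24 proliferation genes were on and above 100 on each array, with a median of 14554, 15661 and 13061 and a median SD between arrays of 0.044 on the log2 scale (0.085 over all names on, and 0.059 over those with a signal between 10000 and 30000). TK1, which makes thymidine monophosphate in S phase, had 233032, 267413 and 211844, TYMS, the thymidylate synthase, 201706, 230285 and 175572, and MCM7, part of the replicative helicase, 197067, 206542 and 169930. The 20 housekeeping references were all on, with RPLP0, ACTB and RPL13A the brightest. ACTB, the cytoplasmic actin, had 370793, 401521 and 393455.

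Abundant non-coding RNAs, most of them known from the cytoplasm, were on for 16 of 16 measured names, all above 100, with a median of 29178, 33511 and 24146. For comparison, 73% of all names and 54.1% of long non-coding RNAs were on, and 53.3% of all names were above 100. RN7SL1, the RNA of the signal recognition particle, had 93201, 84162 and 89674, and GAS5, a host of small nucleolar RNAs, 79776, 96870 and 75115. RN7SK, which binds the elongation factor P-TEFb in the nucleus, had the highest signal of the list, at 139644, 147466 and 115193. Of 12 RNAs listed as retained in the nucleus, 6 were measured and all 6 were on, with a median of 1086, 1072 and 798. Of these, 4 were above 100 on all arrays (66.7%, against 53.3% of all names). PVT1 had 21895, 22589 and 12968, with the lowest value on replicate 3, and MALAT1, a resident of nuclear speckles, 412, 459 and 306. The fraction thus gave signal at probes of that list too. Whether each of its members, PVT1 among them, stays in the nucleus of these cells was not tested. How much nuclear RNA the fraction held was not tested, since no nuclear fraction was analysed here.

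Of 22 mesenchymal genes, 21 were on (95.5%, against 73% of all names) and 19 were above 100 on all arrays, with a median of 3068, 3273 and 2912. LGALS1, the galectin of connective tissue cells, had 279817, 283009 and 246977, and VIM, the intermediate filament of mesenchyme, 241536, 246881 and 263041. THY1, a surface marker of stromal cells, had 40391, 42360 and 34817, and S100A6, a calcium-binding protein, 43688, 48448 and 41159. The repressor ZEB2 alone was off, at 14.1, 10.9 and 13.8 for its brightest of 2 probes.

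Osteoblast transcription factors were on for 11 of 15 genes (73.3%, against 73% of all names), and 9 were above 100. RUNX2, which commits cells to the osteoblast fate, had 233, 237 and 210, and SP7, which acts after it, 169, 181 and 158. Both master regulators were therefore on, at modest probe signals. ATF4, which osteoblasts need for matrix production and all cells use in amino acid stress, had 182557, 199074 and 166794. MSX1 and MSX2, homeobox genes of craniofacial bone, had 2070, 1991 and 1568, and 50.7, 47.3 and 38.1. TWIST1 and TWIST2, which hold back RUNX2 in precursor cells, had 70.2, 73 and 50.8, and 774, 838 and 721. PRRX1, a factor of limb mesenchyme, had 222, 270 and 215, SOX4 469, 548 and 419, and ZFHX4 1036, 1118 and 916. The distal-less genes DLX3, DLX5 and DLX6, which act in bone formation, were off at no more than 7.44 on any array, and SOX11 was off at 7.14, 15.8 and 7.63.

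Bone matrix genes were on for 21 of 26 (80.8%), 14 of them above 100. SERPINH1, the chaperone of collagen, had 21115, 22178 and 18779, SPARC, the collagen-binding osteonectin, 8001, 10172 and 6670, and COL6A1, a chain of microfibrillar collagen, 7640, 7369 and 6078. COL1A1, the main chain of bone collagen, had 6487, 6839 and 5907. Its partner chain COL1A2, named here after its values were seen, was on near the limit of the flag, at 18.2, 19.1 and 15.7, each gene having 1 probe. Off were COL3A1, the collagen of soft connective tissue, COL11A1, the fibrillin FBN1 and POSTN, the periostin of the bone surface, along with OGN. The shares on and above 100 (80.8% and 53.8%) were near those of all names (73% and 53.3%).

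**Figure D2:**
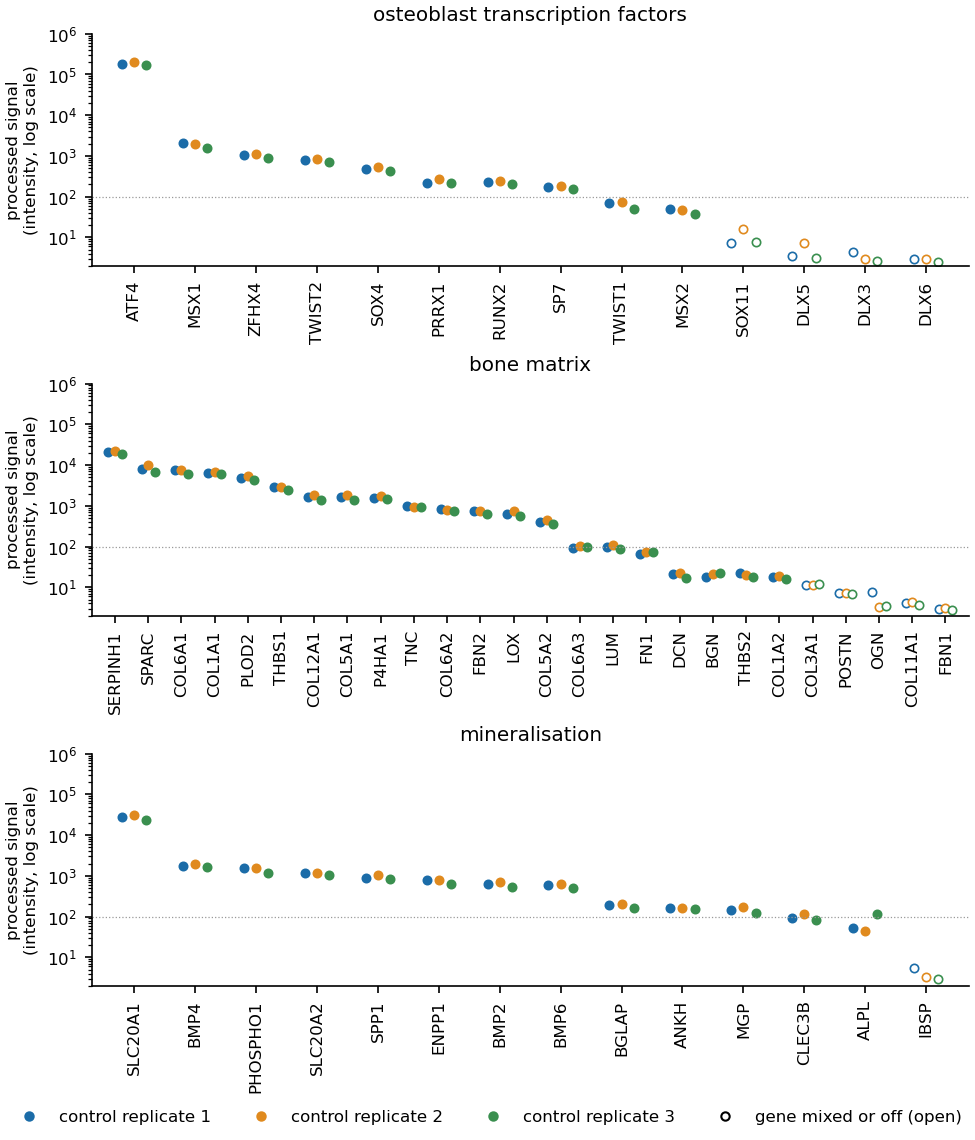
Processed signal (vertical axes, intensity on a log scale) of members of the osteoblast transcription factor, bone matrix and mineralisation lists on the 3 control arrays, 1 point per array, filled for genes on and open for genes mixed or off, with a dotted line at 100. RUNX2 and SP7 lie above the line on each array, and ALPL has its highest point, 118, on replicate 3.

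Of the genes that mineralise bone or regulate it, 13 of 14 were on (92.9%, against 73% of all names and 81% of protein-coding genes) and 11 were above 100 (78.6%, against 53.3% of all names). The phosphate transporters SLC20A1 and SLC20A2 had 27912, 31164 and 24231, and 1184, 1211 and 1067. PHOSPHO1, which frees phosphate inside matrix vesicles, had 1528, 1542 and 1207, and SPP1, the osteopontin that binds mineral, 879, 1027 and 820. ENPP1 and ANKH, which supply the mineralisation inhibitor pyrophosphate, had 773, 809 and 644, and 159, 164 and 155. The inhibitor MGP had 146, 171 and 124, and CLEC3B, or tetranectin, 93, 114 and 83.9. The osteoblast-inducing ligands BMP2, BMP4 and BMP6 had 642, 702 and 539, 1797, 1978 and 1680, and 583, 615 and 518. BGLAP, the osteocalcin of mature osteoblasts, had 194, 206 and 165. ALPL, the phosphatase that marks osteoblasts, had 53.3, 44.8 and 118, so the arrays did not give a like value, and after normalization its highest and lowest arrays were 3.27-fold apart. IBSP, the bone sialoprotein, was off at 5.43, 3.31 and 2.87.

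The start regions of IBSP and DLX6 are shown as examples of lineage genes that were off, with the same window and source (RefSeq, GRCh38.p14). That of IBSP lies at chr4:87799304-87799603 (+ strand), and capitals mark the motif TATAAA, searched on both strands. That of DLX6 lies at chr7:97005303-97005602 (+ strand), and capitals mark the dinucleotide CG, which reads the same on both strands. Neither motif overlaps the other in its letters.
IBSP: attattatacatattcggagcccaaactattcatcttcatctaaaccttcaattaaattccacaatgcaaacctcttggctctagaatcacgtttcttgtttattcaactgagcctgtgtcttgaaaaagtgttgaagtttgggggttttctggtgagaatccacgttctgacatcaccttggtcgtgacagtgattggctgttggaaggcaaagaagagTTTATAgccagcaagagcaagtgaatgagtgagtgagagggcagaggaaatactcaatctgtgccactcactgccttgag
DLX6: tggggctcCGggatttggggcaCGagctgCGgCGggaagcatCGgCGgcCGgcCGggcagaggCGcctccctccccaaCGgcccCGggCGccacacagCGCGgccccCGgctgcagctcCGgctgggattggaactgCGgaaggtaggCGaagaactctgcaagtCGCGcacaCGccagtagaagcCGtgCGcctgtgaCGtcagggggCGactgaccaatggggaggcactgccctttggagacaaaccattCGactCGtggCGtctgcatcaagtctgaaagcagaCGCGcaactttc
IBSP holds 1 match, on the other strand, where it reads TTTATA, and its window has 4 CG and a GC content of 42%. DLX6 holds 30 CG, and its ratio of observed to expected CG is 0.894, against 0.304 for IBSP. Both were picked as examples and do not stand for all genes off. TATAAA on either strand was found in 12% of all 27303 promoters, which were not limited to protein-coding genes, and in 7.33% of those of protein-coding genes on. The matches describe the reference sequence and were not read from these cells.

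Of the osteocyte, receptor and osteoclast lists, that of osteocyte genes had the smallest share on. Osteocyte genes were on for 4 of 8 (50%) and above 100 for 2: CAPG, an actin-capping protein, at 3469, 3755 and 3211, and PDPN, the podoplanin of early osteocytes, at 2020, 2128 and 1728. PHEX, an endopeptidase that controls phosphate, and SOST, the sclerostin that holds back WNT signals, were on at lower signals, of 80.5, 91.2 and 77.4, and of 18.4, 25.7 and 16.6. The matrix protein genes DMP1 and MEPE, the hormone gene FGF23 and RELN were off. Receptors through which osteoblasts take signals were on for 15 of 16 genes (93.8%). LEPR, the leptin receptor, had 133984, 138225 and 117993 at its brightest of 4 probes, NR3C1, the glucocorticoid receptor, 3884, 4914 and 3362, and PTH1R, the receptor of parathyroid hormone, was off at 6.98, 4.32 and 5.14. Of 15 regulators and markers of osteoclasts, 11 were on (73.3%, against 73% of all names). OSCAR and NFATC1 had the brightest signals of these genes, and MMP9 was on as well. TNFRSF11B, the decoy receptor osteoprotegerin, had 2570, 2967 and 2472, while TNFSF11, the ligand RANKL that it captures, was off at 3.55, 7.54 and 2.7. The fusion proteins DCSTAMP and OCSTAMP of osteoclasts were off too.

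Markers of other lineages were not uniformly off, and the flag alone separates them poorly from the bone lists. Over all names 73% were on and 53.3% were above 100, and 81% of protein-coding genes were on. Chondrocyte genes were on for 13 of 14, but with a median of 163, 171 and 133 and 7 of 14 above 100. HAPLN1, the link protein of cartilage, had 10142, 12023 and 9381, SOX9, the chondrocyte regulator, 946, 915 and 817, and COL2A1, the collagen of cartilage, was off at 11.7, 12.7 and 7.88. Adipocyte genes were on for 5 of 9, PPARG, the fat cell regulator, at 3019, 3184 and 2560, with ADIPOQ, FABP4, PLIN1 and LEP off. The lipase genes LIPE and LPL were on too, at 6412, 7392 and 5367 and at 544, 617 and 459, as was the lipid droplet gene CIDEC. Skeletal muscle genes were on for 8 of 10 and above 100 for 4, TNNT1, a slow troponin, at 49226, 56451 and 42791, with PAX7, a factor of muscle stem cells, on at 409, 503 and 347. Of the myogenic factors MYF5 and MYF6 were off, and MYOD1, named here after its values were seen, was on at 79.5, 84.3 and 67.2.

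Epithelial genes were on for 13 of 19 and above 100 for 9. KRT18 and KRT8, the keratin pair of simple epithelia, had 156227, 165954 and 144662, and 12002, 11619 and 12090, and KRT7 had 10349, 10864 and 9593. CDH1, the adhesion protein that defines epithelia, was off at 14.9, 11.9 and 8.93, as were KRT5, ELF3 and TP63. Haematopoietic genes were on for 13 of 14 and above 100 for 8, CD4 at 13055, 13713 and 11456 and HBB, the beta globin, off. For endothelial genes the counts were 5 of 9 and 2, the 2 being CDH5 and VWF, with KDR, TIE1 and CLDN5 off. Neural genes were on for 9 of 16 (14 by the positive and significant flag and by the 99th percentile of the negative controls) and above 100 for 7, led by TUBB3, a neuronal tubulin, at 10207, 10353 and 8580, with GFAP, MBP, NEFM and S100B off. Hepatocyte genes were on for 5 of 11 (8 by either of those limits) and above 100 for 3, SERPINA1, the antitrypsin of plasma, at 2973, 2896 and 2726, AFP at 678, 842 and 546 and APOA1 at 167, 162 and 140, with ALB, APOB, TTR and HNF4A off. Pluripotency and germ cell genes were on for 4 of 11 (7 by the former), LIN28B, a repressor of let-7, at 1877, 2160 and 1576 and SOX2 at 503, 615 and 429, while NANOG, LIN28A, DDX4 and DAZL were off. Which cells these signals came from was not tested, and the cultures hold a line and no mixture by their labels.

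**Figure D3:**
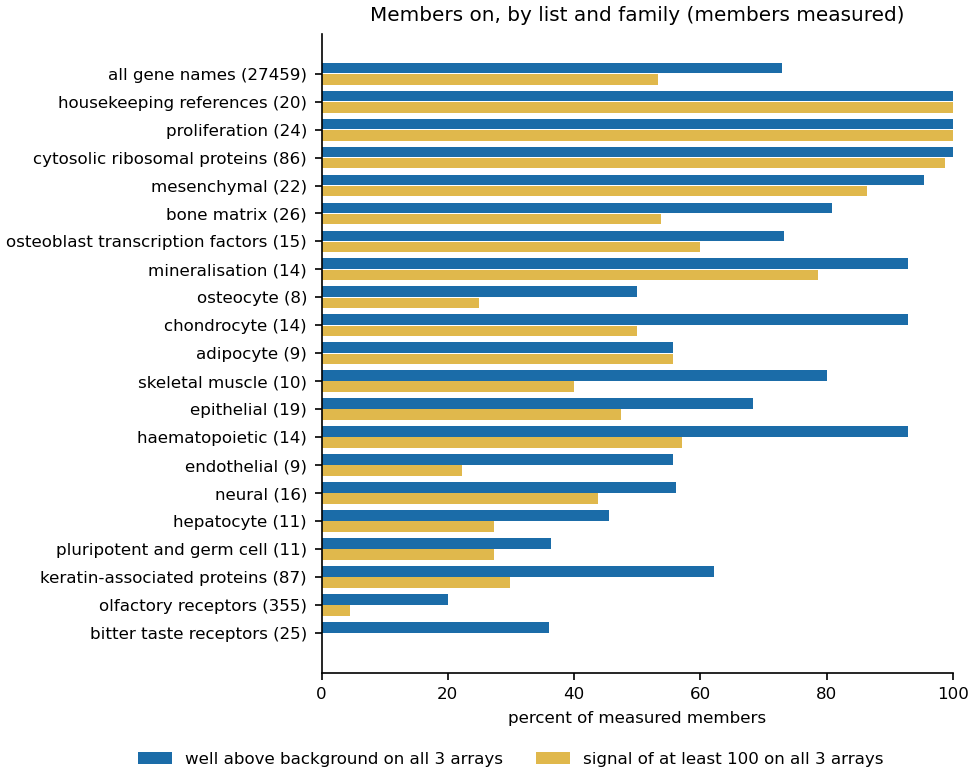
Percent of measured members (horizontal axis) that were well above background on all 3 control arrays, and that reached a signal of 100 on all 3, for all gene names and for 20 lists and families, with the number of measured members in brackets. The bar of the flag is near 100% for ribosomal proteins and 20% for olfactory receptors, beside 73% for all names.

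The HOX genes set position along the body axis. In HOXA all 10 measured genes were on, in HOXB 9 of 10 (90%), in HOXC 7 of 9 (77.8%) and in HOXD 5 of 9 (55.6%), against 73% of all names and 81% of protein-coding genes. By the positive and significant flag 8 of the 9 HOXD genes were on. HOXB9 had 16005, 15904 and 11703, HOXC9 7833, 8905 and 6564, HOXC6 6258, 7405 and 4819, and HOXA10 4498, 5656 and 5251. The genes of the groups numbered 9 and 10 had signals above 100 in each cluster where they were measured. HOXB13 and HOXC13, genes of the posterior end, had 2222, 2741 and 1865, and 2623, 2681 and 2364. HOXD13, the posterior end of its cluster, was off at 4.84, 7.02 and 10.6, with HOXD12 and HOXD4 off beside it. HOXB1 and HOXC12 were off as well, HOXC5 and HOXD3 were mixed, and HOXA6 was not measured. The HOXD cluster had 3 of 9 genes above 100, HOXD8, HOXD10 and HOXD9, against 8 of 10 in HOXA, 8 of 10 in HOXB and 6 of 9 in HOXC. HOXB8 had 77.2, 34.8 and 20.4, the widest spread of the HOX genes on (3.12-fold after normalization).

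**Figure D4:**
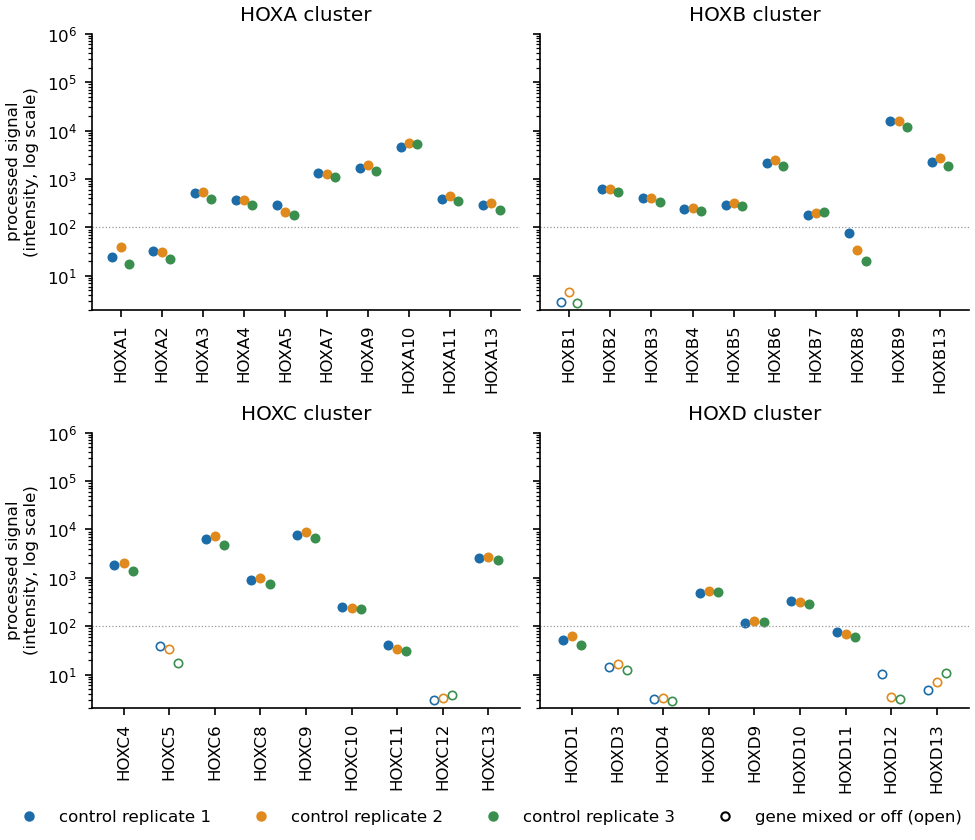
Processed signal (vertical axes, intensity on a log scale) of the HOX genes in the order of their numbers along each cluster (horizontal axes), 1 point per control array, filled for genes on and open for genes mixed or off, with a dotted line at 100. HOXB9 is highest in its cluster on each array (16005, 15904 and 11703), and HOXD holds 4 open genes.

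Of 30 genes that brake or drive the cell cycle, 29 were on (96.7%, against 73% of all names and 81% of protein-coding genes). Above 100 were 28 of them (93.3%, against 53.3% of all names). The RB brake and what it restrains were both on: RB1 had 3146, 3855 and 2620, its relatives RBL1 and RBL2 1243, 1454 and 1098, and 2246, 2488 and 1937, and all of E2F1 to E2F8 were on, E2F2 at 22195, 27703 and 19966. CCNE1, the cyclin that opens S phase with CDK2, had 57140, 64506 and 50280, and CDK4 and CDK6, the kinases of RB, had 33870, 33766 and 31788, and 18999, 21451 and 15542. These drive the cell cycle forward. Among the inhibitors, CDKN2A, the gene of p16 and ARF, was on with both probes at 1250, 1258 and 1037, CDKN2C and CDKN2D were on at 3480, 3799 and 2998, and 13165, 15401 and 10641, and CDKN2B, the neighbour of CDKN2A, was off at 7.24, 3.13 and 4.3. The ubiquitin ligase gene MDM2 and its relative MDM4 had 681, 776 and 543, and 743, 858 and 699, and CDKN1A, the kinase inhibitor p21, 783, 726 and 609.

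All 25 telomere genes were on, and 24 were above 100 (96%), where 73% of all names were on and 53.3% were above 100. The exception was TERT, the catalytic protein of telomerase, at 84.5, 90.4 and 74.8. TERC, its RNA template, had 1216, 1034 and 937. The proteins that pack such RNAs were on: NHP2 at 132990, 150608 and 118991, NOP10 at 103742, 118718 and 86191, GAR1 at 31962, 37858 and 27817, and DKC1 at 21526, 23173 and 18180, all of which also serve ribosomal RNA. ATRX and DAXX, the chromatin pair whose loss is linked to telomere upkeep by recombination, had 8987, 8893 and 7418 and 4505, 4458 and 4047, with 3 of the 4 ATRX probes on and 1 off. The probes do not show whether a full-length message was made. Helicases and nucleases of recombination followed, among them BLM at 6253, 6871 and 4995, SMARCAL1 at 6296, 7605 and 5464, FANCM at 1454, 1827 and 1333 and SLX4 at 2531, 2622 and 2248.

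WNT signals drive osteoblast formation. All 13 WNT receptors were on and above 100, and of the genes that pass the signal on or answer it 16 of 18 were on. RYK, a WNT co-receptor, had 7339, 8798 and 6565, FZD2 3492, 3678 and 3273, and CTNNB1, the beta-catenin, 5926, 6580 and 5060. WNT ligands were on for 11 of 19 genes (57.9%, against 73% of all names, and 15 of 19 by the positive and significant flag) and above 100 for 6, WNT3 at 1666, 1618 and 1422 and WNT6 at 1327, 1485 and 1097, with WNT2, WNT4, WNT11 and WNT16 off. Secreted WNT inhibitors were on for 5 of 11 and above 100 for 2, DKK3 at 3611, 3953 and 3192 and SFRP1 at 808, 862 and 779, with SFRP2, SFRP4, WIF1 and NOTUM off. The factor TCF7 and the stem cell receptor LGR5 were the 2 downstream genes off.

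All 15 Hedgehog genes were on and 7 were above 100 (46.7%, against 53.3% of all names), from the transducer SMO at 2305, 2405 and 1898 to the factors GLI1, GLI2 and GLI3 at 933, 1281 and 1003, 556, 612 and 543, and 2856, 3208 and 2595. NOTCH genes were on for 17 of 21 (81%, the share of protein-coding genes) and above 100 for 10 (47.6%), NOTCH2 at 10338, 12005 and 8158 and RBPJ, the DNA-binding partner of the cleaved receptor, at 6958, 8507 and 5116, with DLL4, HES2, HEY2 and HEYL off. Ligands of the TGF-beta and BMP family were on for 19 of 30 (63.3%) and above 100 for 14 (46.7%). GDF15, a stress hormone, had 11532, 12197 and 9230, BMP5 10976, 11991 and 8859, and INHBA, the activin A chain, 9339, 11107 and 7961. GDF3, BMP3, MSTN and NODAL, which act in embryo, bone or muscle, were off.

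Of 58 receptor tyrosine kinases, 44 were on (75.9%) and 31 were above 100 (53.4%), where 73% of all names and 81% of protein-coding genes were on and 53.3% of all names were above 100. AXL, the receptor of GAS6, had 40588, 41365 and 35503, and MET, the receptor of hepatocyte growth factor, 7233, 8933 and 6195. The receptors KIT, FLT3, ALK and KDR were off. In the IGF axis 11 of 15 genes were on (73.3%). IGF2, a growth factor of fetal tissue, had 17591, 19120 and 14147, IGFBP7 5393, 6397 and 4472, and IGFBP6 2351, 2446 and 1927, while IGF1 and the binding proteins IGFBP1, IGFBP3 and IGFBP4 were off.

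Sensors of foreign nucleic acid matter here because the cells had taken up siRNA. Of 22 measured genes, 17 were on (77.3%, against 73% of all names), 4 were mixed and 1 was off. The DNA sensor CGAS and its partner STING1 had 1370, 1503 and 1362, and 1250, 1427 and 960. The RNA sensors RIGI and IFIH1 had 289, 340 and 243, and 334, 384 and 303, and their adaptor MAVS 4021, 4813 and 3504. Of the interferon genes in the list, IFNA1 was not measured, IFNB1 was off at 4.54, 10.4 and 4.9, and IFNL1 was mixed at 25.6, 20.7 and 15, as were IRF7, ZBP1 and AIM2. Toll-like receptors and adaptors were on for 9 of 13, TLR4, which senses lipopolysaccharide, at 3269, 3669 and 2834 and TICAM1 at 8674, 8020 and 7186, with TLR2, TLR7, TLR8 and TLR10 off. Interferon-stimulated genes were on for 31 of 35, with a median of 298, 311 and 249. IFITM3, which blocks virus entry, had 25853, 26887 and 21533 and ISG15 8219, 9317 and 6898, while RSAD2 and HERC5 were off. Inflammatory genes were on for 18 of 20, NFKBIA at 9895, 11122 and 8263, CCL2 at 4880, 5380 and 4325, and IL11, a cytokine that bone cells make, at 4598, 5359 and 3473, with CCL5 and CSF3 off. Without untransfected cells, the part of transfection in these levels was not tested.

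Lists of stress and metabolic genes are set here beside the 73% of all names and 81% of protein-coding genes that were on. All 20 genes of the ATF4 and unfolded protein responses were on and above 100, SDF2L1, a protein of the endoplasmic reticulum, at 110344, 126483 and 97436 and ASNS, the asparagine synthetase, at 32484, 37332 and 27866. All 20 hypoxia-induced genes were on and 16 were above 100, BNIP3 at 19105, 21412 and 16510. Cholesterol synthesis genes were on for 23 of 24, EBP at 45391, 51361 and 39511 and FDPS, the farnesyl diphosphate synthase, at 30291, 31008 and 25305. Immediate early genes were on for 20 of 21, IER2 at 98140, 112176 and 90641 and IER3 at 40127, 42901 and 33084, with EGR3 off.

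The factors that the study knocks down were on in these control cells. DDX19B, the helicase DBP5 that strips proteins from RNA at the pore, had 1305, 1278 and 1048, and GLE1, its activator, 355, 363 and 284. IPPK, the kinase that makes the cofactor inositol hexakisphosphate, had 700, 778 and 653 at the brightest of 2 probes, both on. Their normalized signals were close between arrays, with highest over lowest at 1.1-fold, 1.06-fold and 1.09-fold. Of 33 measured genes of these factors and of mRNA export, 32 were on and above 100 (97%, against 73% of all names on and 53.3% above 100), with a median of 4961, 5187 and 4079 and a median SD of 0.048 (0.085 over all names on, and 0.063 over those with a signal between 3000 and 10000). DDX19A, the close relative of DDX19B, had 7659, 8296 and 6239, NUP214, which docks the helicase, 919, 961 and 855, NUP42, which binds GLE1, 1991, 2398 and 1900, and NXF1, the export receptor, 3373, 3753 and 3023. Of the pair of UAP56 helicases, DDX39A had 38526, 40994 and 32828 and DDX39B 966, 879 and 828. LUZP4, a testis and tumour relative of the adaptors, was off at 7.07, 6.4 and 4.88.

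Among the 39 gene families, absent signals were most frequent in the receptors of smell and taste. Of 355 olfactory receptor genes, 229 were off (64.5%, against 21% of all names and 14.6% of protein-coding genes), 55 were mixed and 71 were on, of which 16 were above 100. The number on depends on the limit, with 199 by the positive and significant flag and 184 by the 99th percentile of the negative controls. Those limits called 16 and 16 of the bitter taste receptors on in place of 9, and 25 and 24 of the beta-defensins named below in place of 15. OR2H1 had 4111, 4318 and 4329 at 1 of its 2 probes, the other being off. Bitter taste receptors were off for 13 of 25 (52%) and none of the 25 reached 100 on all arrays. Beta-defensins, the antimicrobial peptides of epithelia, were off for 12 of 30 (40%), and 3 of the 30 reached 100 on all arrays. Keratin-associated proteins of hair (25 of 87, 28.7%) and keratins (15 of 53, 28.3%) stood beside 21% of all names and 14.6% of protein-coding genes. KRT81, a hair keratin, had 193010, 203832 and 177104. Protocadherins were off for 15 of 58 (25.9%, with 33 on, 17 above 100, and 50 on by the positive and significant flag), cadherins for 8 of 23 (34.8%), claudins for 7 of 23 (30.4%) and collagens for 11 of 44 (25%). Above 100 were 26 of the 87 keratin-associated proteins (54 on), 19 of the 53 keratins (32 on), 9 cadherins (14 on), 5 claudins (13 on) and 18 collagens (30 on). Non-coding genes named LINC were off for 194 of 435 (44.6%), with 205 on, 104 above 100, and 309 on by that flag. LINC01001 of that family had 236892, 247708 and 249844. The MAGE family, testis genes that tumours express, was on for 22 of 29 (75.9%) and off for 5 (17.2%), near the shares of all names. MAGEA6 had 56861, 65819 and 47042, MAGEA2B 39091, 39308 and 35004, MAGEA1 28423, 29732 and 25164 and MAGEA12 23442, 25213 and 21834, with MAGEB18, MAGEC3, MAGEB16 and MAGEB4 off.

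The promoters of these groups differ in composition. The 27303 promoters of the whole table were not limited to protein-coding genes, while the genes on counted here were all protein-coding. Whether the differences below go with being on was not tested, since the sets of genes off and mixed are void. The ratio of observed to expected CG, which is low where methylated CG was lost over evolution, had a median of 0.815 over the 11973 promoters held for the 14826 protein-coding genes on (80.8%), and of 0.58 over all 27303 promoters. It was 0.927 for the 80 promoters of the 100 brightest protein-coding genes, and 0.118 for the 288 held for the 355 olfactory receptors. GC content had a median of 64.7% for genes on, 61.8% for the 100 brightest, 37.8% for olfactory receptors and 58.3% for all. The motif TATAAA was searched on both strands, and so were the motif CCAAT of many start regions and the GC box with the letters GGGCGG. No pair of them can match at exactly the same letters, though a CCAAT on the other strand can share its end letters with the GC box. The letters GGGCGG were found in 66% of promoters of genes on, 65% of those of the 100 brightest, 1.04% of those of olfactory receptors and 44.6% of all. TATAAA was found in 59.2% of the 76 histone promoters and 79.5% of the 73 promoters of keratin-associated proteins, against 12% of all. CCAAT was found in 86.8% of histone promoters, against 35.7% of all. The same check is void for protein-coding genes off (promoters for 79.4%), mixed genes (75%), the 1000 dimmest protein-coding genes on (75.7%) and metallothioneins (45.5%).

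The replicates lay close together. For each name on, the SD of the normalized log2 signal over the 3 arrays had a median of 0.085, with quartiles of 0.050 and 0.141 and a 95th percentile of 0.344. The highest array exceeded the lowest by a median of 1.12-fold. At least 1.5-fold separated highest and lowest for 1269 of 20038 names (6.33%), at least 2-fold for 343 (1.71%) and at least 3-fold for 62 (0.309%). The count of names 1.5-fold apart was 781 without replicate 1, 602 without replicate 2 and 641 without replicate 3, a pair of arrays having fewer ways to differ than 3, and 2429 without normalization between arrays. Normexp background correction gave 330 such names, and the log2 table that the authors deposited gave 314. Taken over names on, which do not count as replicates of each other, the Pearson correlation was 0.9976 for replicates 1 and 2, 0.9974 for 1 and 3 and 0.9968 for 2 and 3. Before normalization the signal of replicate 3 lay under that of the others, with median log2 differences of 0.23 from replicate 1 and 0.33 from replicate 2, and replicate 1 stood at -0.10 from replicate 2.

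Dim probes spread more than bright ones. The median SD was 0.188 for names with a mean signal under 30, 0.098 between 100 and 300, 0.054 between 30000 and 100000, and 0.058 from 100000 up, and the share at least 1.5-fold apart was 18.6%, 6.7%, 0.392% and 0.568%. Across names on, SD and level had a Spearman rho of -0.47, given as a description. The software's own replicates allow a comparison within an array. Of the 999 probes with 10 spots each, 816 were well above background on all 3 arrays, and of these 812, 815 and 811 entered the SD between spots of an array, whose median was 0.053, 0.056 and 0.055. The median SD between arrays of the 816 was 0.079, above the mean SD between spots for 516 of them (63.2%). The value of an array is the mean of the usable spots of a probe, while the SD between spots is that of single spots. The measures are thus unlike, and the 63.2% does not show how much of the spread between arrays comes from spots. Replicate 1 was the array apart from the other pair in 262 of the 1269 names, replicate 2 in 506 and replicate 3 in 501. Replicate 2 was the low array in 438 of its 506 and replicate 3 in 409 of its 501. Among mixed names, 473 were flagged on replicate 1 alone, against 184 on replicate 2 alone and 146 on replicate 3 alone.

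The names furthest apart include coding genes, structural RNAs and probes without a gene. The probe A_33_P3364498 had 8025, 9077 and 534 (13.4-fold after normalization), low on replicate 3. RNA5-8SN5, the small RNA of the large ribosomal subunit, had 3698, 3242 and 27122 (10.6-fold), high on replicate 3. RNA18SN5, the RNA of the small subunit, named here after its values were seen, was also highest there, at 18053, 15692 and 45813 (3.7-fold), while RNA28SN5 differed by 1.24-fold. Low on replicate 3 were GLIS2, a zinc finger factor, at 669, 757 and 68.3, and PGAM2, the muscle phosphoglycerate mutase, at 124, 135 and 18.3. High on replicate 3 were NKX1-2, a homeobox gene, at 1252, 1258 and 5677, and UPK3B, a uroplakin, at 131, 156 and 634. Replicate 2 was the low array for A_33_P3402773 (1345, 147 and 1123), RNU12, an RNA of the minor spliceosome (493, 116 and 582), and AK127786 (271, 52.5 and 158), and the high array for ENST00000495900 (71, 477 and 61). Each of these 10 names has 1 probe. At the other end, among the 1000 brightest, HMGN2, a nucleosome-binding protein, TM4SF1, a membrane protein of tumour cells, PSMA2 of the proteasome, SRP14 of the signal recognition particle and BRK1, an actin regulator, differed by no more than 1.01-fold after normalization. HMGN2, for example, had 303741, 339952 and 270258 before it.

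**Figure D5:**
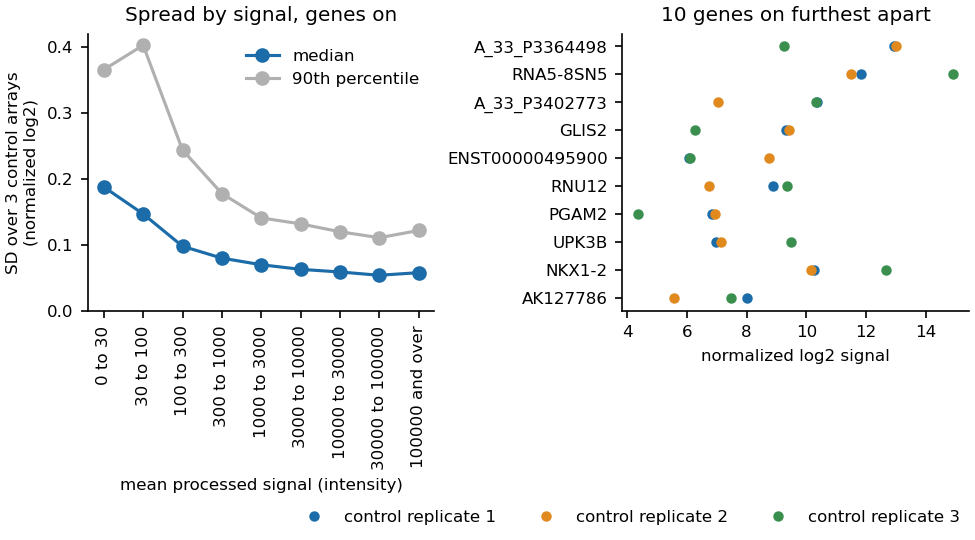
Left, median and 90th percentile of the SD of normalized log2 signal over the 3 control arrays (vertical axis) for names on, by mean processed signal (horizontal axis). Right, normalized log2 signal (horizontal axis) of the 10 names on that were furthest apart, 1 point per array. The median SD falls from 0.188 under a signal of 30 to 0.054 between 30000 and 100000.

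Probes of the same gene did not always give the same call. Of 5411 names with at least 2 probes, 3840 had all probes on, 373 had all off, and 698 (12.9%) had both an on and an off probe. Over the 4004 names with at least 2 probes on, the brightest and the dimmest of them differed by a median of 2.16 on the log2 scale, and in 29.2% of names by at least 10-fold. The widest splits were in AS3MT, an arsenic methyltransferase, with 284707, 337558 and 321298 at a probe on and 3.38, 3.12 and 2.63 at a probe off, then in GNAS, the stimulatory G protein, with 208403, 221408 and 188203 against 3.38, 3.6 and 9.99. ADAMTS7, a protease of cartilage matrix, SLC16A12, a creatine transporter, and the ribosomal protein gene RPL28 came next. In RPL28 3 of 4 probes were on, the brightest at 176288, 196241 and 168381, and the probe off read 16.8, 8.36 and 6.02. Which transcript each probe meets was not tested.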

How the data were processed

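The 3 arrays labelled control siRNA were read from the Feature Extraction output that the authors deposited, in which the processed signal and the median spot and background signals are in linear intensity and the flags are 0 or 1. The table of processed values that the authors deposited is in log2, normalized by LOESS in R according to the methods, and from the values it follows the median spot signal without background subtraction. It was used as an alternative, and 9 of its 12 columns were not used here. Control and outlier spots were left out, spots of a probe were averaged, and log2 signals were normalized between the 3 arrays by cyclic loess (limma 3.58.1 in R 4.3.3, span 0.7, 3 iterations). Levels are printed as the deposited signal, and spread is that of the normalized log2 values. Probe accessions were matched to RefSeq gene names (GRCh38.p14, for names and promoters alone, while the array design is annotated on hg19), and other probes kept the design's name. The brightest probe stood for a name, and 62 names, Y-linked genes and XIST with its antisense RNA, were left out. Tables and figures used Python 3.11.15, pandas 2.3.3, numpy 2.4.6 and matplotlib 3.10.9. The spread step was tested on simulated data. With 1 group and no contrast no test was made. Genes named in the text were drawn from the 20 brightest names, up to 4 brightest members on and 4 members off of each of 45 lists and 39 families, all members of the HOX, cell cycle brake, telomere, nucleic acid sensing, osteoblast factor, mineralisation and export lists, the 10 names furthest apart, the 5 closest of the 1000 brightest and the 5 with the widest split between probes. Members and lists were chosen with earlier results of these data known. Alternatives were other limits for the flag, a flag on 2 arrays, the brightest or all probes, RefSeq names alone, scaling to the 75th percentile, quantile normalization or none, normexp (offset 50), the deposited table, all names, the mean of a gene's probes, and each array left out in turn. Some members of the lists are not reported here.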

Additional observations from a re-analysis of the deposited data

How the results depend on the processing

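No paired analysis was possible because the report holds 1 group of arrays and no contrast. The number of names on ran from 14626 to 24011 over the limits tried and from 20136 to 20535 with an array left out. Names off (5754) numbered 1482 with the positive and significant flag, 1825 with the 99th percentile of negative controls, and 3248 among RefSeq names alone, which are fewer names. The median SD (0.085) was 0.191 without normalization, 0.067 with normexp, 0.068 in the deposited table, 0.101 over all names, and 0.063 to 0.084 with an array left out. Names at least 1.5-fold apart (1269) numbered 2429, 330, 314 and 5240 in the same order, and 602 to 781 with an array left out, where 2 arrays remain. The 100 brightest held 22.4% of the sum with the mean of a gene's probes (21%), and 10 of the 20 brightest names were shared. The cause of these shifts was not tested, apart from the fewer names or arrays by construction. Of 83 lists and families, the number on moved beyond 1.5 times in 10 (more) with the positive and significant flag, 6 (more) with the 99th percentile, and 28 (fewer) at a signal of 100, and in 0 with a flag on 2 arrays, the brightest probe alone or an array left out, the settings under which lists were also counted. The signal limit of 100, all probes flagged and RefSeq names alone were chosen after seeing the data. Low signal over background limits calls near the flag, 3 arrays limit the spread, and probes limit the comparison of genes.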

Other observations

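Further families describe the membrane, the secretome and the metabolism of the control cells. Solute carriers were on for 286 of 379 genes (75.5%, beside 73% of all names and 81% of protein-coding genes) and above 100 for 218 (57.5%, beside 53.3% of all names), with SLC25A3, the phosphate carrier of mitochondria, at 127012, 149045 and 115381. Potassium channel genes were on for 59 of 95 and above 100 for 28, KCNN4, a calcium-activated channel, at 10615, 12071 and 9499. Integrins, the receptors for matrix, were on for 23 of 26 genes and above 100 for 14, ITGB5, a partner in the vitronectin receptor, at 9491, 9864 and 8212, ITGAE, a chain known from lymphocytes, at 6196, 6721 and 4747, ITGB1 at 3986, 3610 and 4014, and ITGAL, the chain of leukocytes, off at 2.93, 3.17 and 2.72. Interleukins and their receptors were on for 29 of 45 names and above 100 for 14, IL18 at 11099, 12475 and 8794, and chemokines were on for 26 of 42 and above 100 for 16, CCL24 at 5751, 6166 and 5261, with CXCL9 and CXCL13 off. S100 genes were on for 16 of 21 and above 100 for 11, S100A2 at 70312, 83279 and 66445 and S100A8, a protein of myeloid cells, off. Cytochromes P450 were on for 30 of 54 (47 by the positive and significant flag and 46 by the 99th percentile of the negative controls) and above 100 for 15, CYP2W1 at 307819, 325483 and 278755 at a probe whose target was not tested, CYP51A1, a sterol demethylase, at 11900, 12364 and 9664, and CYP7A1, the enzyme that starts bile acid synthesis, off. Aldo-keto reductases were on for 10 of 12 genes and above 100 for 8, AKR1B1, the aldose reductase, at 13259, 13444 and 10950.

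Zinc finger genes named ZNF were on for 442 of 486 (90.9%) and above 100 for 361. FOX factors were on for 29 of 46 (63%, beside 73% of all names and 81% of protein-coding genes) and above 100 for 26, FOXM1, which drives mitotic genes, at 11810, 12549 and 10565, FOXA1, a factor of endoderm, off, and FOXI2 at 38009, 29347 and 9624, 3.43-fold apart after normalization. SOX factors were on for 12 of 19 (63.2%) and above 100 for 6, SOX17 at 4996, 5667 and 4000. MicroRNA host genes were on for 14 of 24 (58.3%, beside 54.1% of long non-coding RNAs) and above 100 for 8, MIR4435-2HG at 21853, 22348 and 18263. Small nucleolar RNAs, counted together with SCARNA genes, were on for 25 of 26 names and above 100 for 18. SNORD3B-1 of that family, the U3 RNA of ribosome assembly, had 92908, 105288 and 81954.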
